A study of Mus musculus with 9 samples.

Results

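Preleptotene (PL) spermatocytes that had been kept without new synthesis of retinoic acid (RA) were compared with PL spermatocytes in which synthesis had been allowed to resume, both at postnatal day (P)19. The comparison used 6 of the 9 libraries of the series, 3 RA-deficient and 3 RA-sufficient, chosen by the column names of the gene count table, and it covered all 24505 entries of that table. All mice carried the Uchl1-eGfp transgene, in which the promoter of Uchl1 drives EGFP, and were of C57BL/6 origin outcrossed with CD-1. All of them received WIN 18,446, an inhibitor of the aldehyde dehydrogenases that make RA, daily from P1 at 100 µg per g of body weight, and all received a single subcutaneous injection of 10 µl of RA at 10 µg/µl on P11. In the RA-sufficient group WIN 18,446 was then stopped, whereas in the RA-deficient group it was given every day until the cells were collected. PL cells were sorted as EGFP-dim cells from pooled testes, so a library is a preparation from several males and not a single animal. The 3 In/B libraries, EGFP-bright intermediate and type B spermatogonia from P17 testes synchronized with the same WIN 18,446 and RA doses, are given beside the PL values as the cell type that comes just before.

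RA is made from retinol in consecutive oxidations, by retinol dehydrogenases and then by retinaldehyde dehydrogenases of the Aldh1a family, and is broken down by the Cyp26 cytochromes. It acts through nuclear receptors of the RAR and RXR families, which sit on paired half-sites in the DNA of their target genes. In the testis RA starts spermatogonial differentiation, and a later rise in RA coincides with the entry of germ cells into meiosis as PL spermatocytes, the cells that carry out the last DNA replication before meiotic prophase. Sertoli cells, the somatic cells of the seminiferous tubule, and germ cells both express enzymes of RA synthesis.

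The PL libraries held between 12612959 and 27042274 counts. Between 17541 and 18434 genes were detected in the RA-sufficient libraries and between 14769 and 15327 in the RA-deficient libraries, although the latter were deeper, and at the smallest total of 12612959 counts the expected numbers were 17541 to 18047 and 14631 to 15171. Among the RA-deficient libraries, replicate 3 stood apart. Its log2 CPM, counts scaled to a common library size, correlated with those of replicates 1 and 2 at 0.869 and 0.866, against 0.934 between replicates 1 and 2 and 0.953 to 0.983 among the RA-sufficient libraries, values that are across genes and describe only these libraries. The PL markers were present in both groups. The summed CPM of 11 PL germ cell markers was 5609, 6774 and 7145 in RA-sufficient libraries and 8180, 7984 and 8971 in RA-deficient libraries, against 3025 to 3677 in In/B. Prdm9, which marks the sites of meiotic double-strand breaks, had 368, 538 and 566 CPM in RA-sufficient PL, 630, 633 and 636 CPM in RA-deficient PL, and 50.3 to 119 CPM in In/B.

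With continued block of RA synthesis, more genes were lower than higher. Of 15352 tested genes, 1696 were called lower (11%) and 687 were called higher (4.47%) in RA-deficient PL, so 71.2% of the 2383 calls were lower. A gene was called where the log2 fold change, RA-deficient minus RA-sufficient throughout, exceeded 1 in size and edgeR's quasi-likelihood test gave a Benjamini-Hochberg adjusted p below 0.05, and every adjusted p printed here comes from that test unless another is named. The median change of the lower genes was -2.46 and that of the higher genes 1.5 on the log2 scale, against -0.09 over all tested genes. Scaling by library size alone moved the median of all genes to -0.27 and gave 426 higher and 2003 lower genes, so that 82.5% of calls were lower. Of the lower genes, 224 had no count in any RA-deficient library, and 13 of these had a mean of at least 5 CPM in RA-sufficient PL. Of the higher genes, 1 had no count in any RA-sufficient library.

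**Figure D1:**
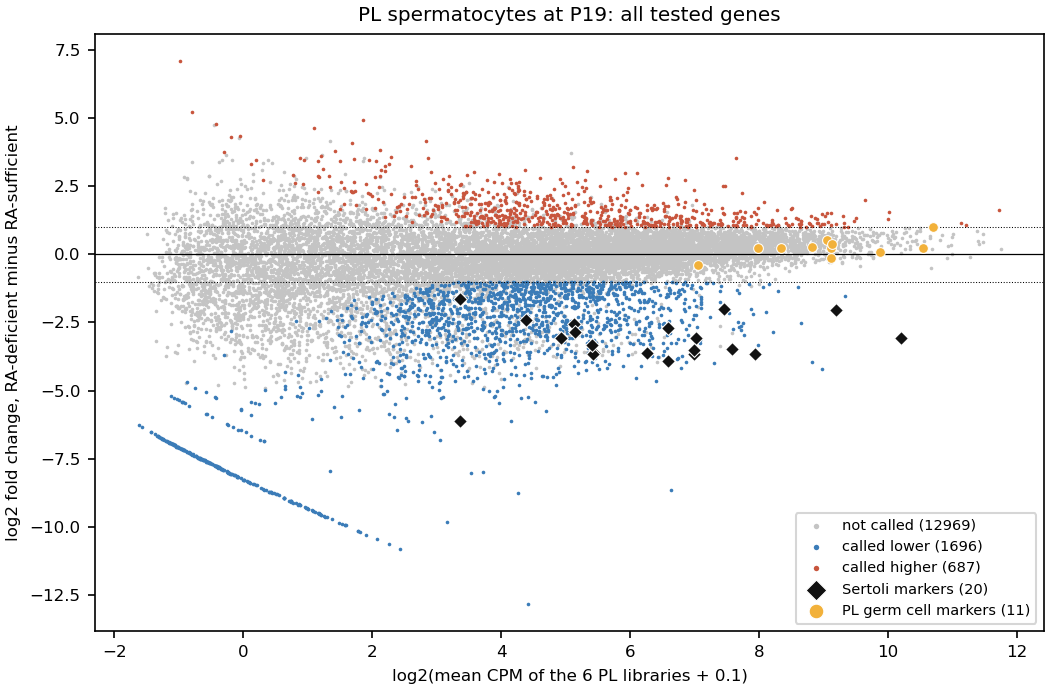
Log2 fold change (RA-deficient minus RA-sufficient PL) against the mean level of the 6 PL libraries, as log2(CPM + 0.1), for the 15352 tested genes, with dotted lines at a log2 fold change of 1 in either direction. The 20 Sertoli markers (black) all lie among the lower genes and the 11 PL germ cell markers (yellow) lie between -0.38 and 0.99, and the diagonal line of points at the lower left holds genes with no count in any RA-deficient library, whose fitted folds depend on the prior count.

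The lower genes included markers of Sertoli cells. All 20 tested Sertoli markers were called lower, against 11% of all tested genes. Their log2 fold changes ran from -6.13 to -1.64 with a median of -3.20, and 17 of the 20 stayed called when any 1 library was left out. Their summed CPM was 7028, 5085 and 5219 in RA-sufficient PL, 666, 681 and 1040 in RA-deficient PL, and 226, 713 and 503 in In/B. The groups did not overlap, and the RA-deficient sums were close to those of In/B. Clu, a secreted chaperone abundant in Sertoli cells, had 2519, 1902 and 1849 CPM in RA-sufficient PL and 194, 208 and 348 CPM in RA-deficient PL. Wt1, the transcription factor that maintains Sertoli identity, had 203, 144 and 151 CPM against 24.0, 21.4 and 31.1 CPM, and Sox9, which directs Sertoli differentiation, had 64.2, 53.2 and 61.4 CPM against 5.80, 7.88 and 17.2 CPM. In bulk libraries fewer cells of a type and less RNA per cell cannot be told apart. Of the 1696 lower genes, 1014 had log2 fold changes within the range of the Sertoli markers, 438 fell by less and 244 by more, and the part of Sertoli RNA in each lower gene was not tested.

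Fewer markers of the other somatic cells were called. Of all tested genes 11% were called lower and 4.47% higher. Of 8 tested Leydig markers 2 were called lower, 5 without RA-deficient 3 and 1 without RA-sufficient 1, against 11, 20.4 and 5.28% of all tested genes. The 2 were Nr5a1, the steroidogenic factor that Sertoli cells also express, with 76.4, 71.1 and 71.2 CPM against 6.00, 6.38 and 10.5 CPM, and Star, the carrier of cholesterol into mitochondria, with a log2 fold change of -1.07 ± 0.25 (SE), whose call was lost without any 1 library other than RA-deficient 3 (adjusted p 0.0641 to 0.0878). Of 12 tested peritubular and stromal markers, Sparc and Vim were called lower (16.7%, against 11% of all tested genes) and Col1a1 higher (8.33%, against 4.47%). Sparc, a matrix glycoprotein that Sertoli and Leydig cells make as well, had 1169, 838 and 855 CPM in RA-sufficient PL and 35.1, 38.6 and 81.1 CPM in RA-deficient PL, while Col1a1, a chain of type I collagen, had 5.96, 14.7 and 14.4 CPM against 68.5, 68.0 and 56.7 CPM, with 48.2 to 70.8 CPM in In/B. Of 9 tested macrophage and blood markers 0 were called by edgeR, against 2 lower at an unadjusted p below 0.05, 2 lower by DESeq2 and 5 lower by limma voom. Without RA-deficient 3 edgeR called 3 of 10 lower, where 20.4% of all tested genes were called lower. The highest level of the defining macrophage markers C1qa, C1qb and C1qc in any library was 2.34 CPM, for C1qb. Of 8 endothelial markers 0 were called by edgeR, against 2 higher at an unadjusted p below 0.05 and 1 higher by DESeq2 and by limma voom.

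**Figure D2:**
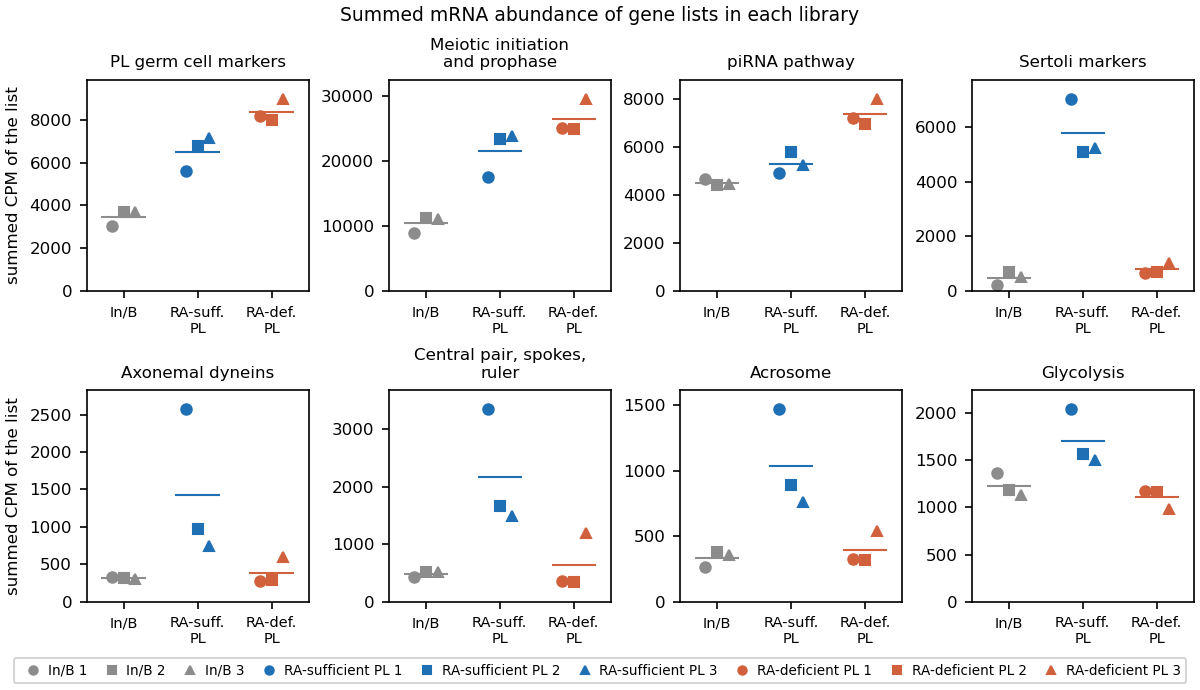
Summed CPM of the genes of 8 lists in each library, with replicates 1, 2 and 3 as circle, square and triangle and the group mean as a bar. The Sertoli sums separate the RA-sufficient libraries (5085 to 7028) from all others, whereas for axonemal dyneins RA-sufficient 1 (2568) lies far above the other RA-sufficient libraries (972 and 746) and RA-deficient 3 (603) lies above its group (278 and 285).

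Genes that take up, make or break down RA were lower where they were called. Of 17 tested genes for synthesis, storage and breakdown 7 were called lower and 0 higher (median on the log2 scale -1.79), against 11% and 4.47% of all tested genes. Without RA-deficient 3 the list gave 9 lower and 1 higher of 17, without RA-sufficient 1 it gave 3 lower of 18, and 2 stayed called lower without any 1 library. Stra6, the membrane receptor through which cells take up retinol, had 122, 87.2 and 81.3 CPM in RA-sufficient PL and 7.68, 7.73 and 7.74 CPM in RA-deficient PL, a log2 fold change of -3.66 ± 0.24 (SE) with adjusted p = 0.00079. In/B had 0.0559, 3.70 and 2.60 CPM, so the RA-deficient level lay between those of In/B and RA-sufficient PL. Aldh1a1, a retinaldehyde dehydrogenase of Sertoli cells, had 171, 106 and 109 CPM against 32.8, 27.1 and 53.3 CPM (log2 fold change -1.79 ± 0.32, adjusted p = 0.00918), and the part of the Sertoli RNA described above in this difference was not tested. Aldh1a2, the retinaldehyde dehydrogenase of germ cells, had 187, 155 and 164 CPM against 150, 139 and 201 CPM, with overlapping groups and a log2 fold change of -0.05 ± 0.17. Rdh10, which carries out the first oxidation of retinol, also overlapped, with 48.1, 49.9 and 44.9 CPM against 37.5, 41.6 and 59.2 CPM.

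The enzymes that clear RA differed from each other. Cyp26a1, which RA itself induces in many cells, had 13.8, 9.76 and 13.4 CPM in RA-sufficient PL and 0, 0.475 and 1.18 CPM in RA-deficient PL (log2 fold change -4.48 ± 1.09, adjusted p = 0.0257). Cyp26c1 had 2.58, 2.73 and 2.16 CPM and no count in any RA-deficient library. Cyp26b1 had 9.86, 8.61 and 7.72 CPM against 19.6, 11.6 and 2.89 CPM, with RA-deficient replicates 1 and 2 above and replicate 3 below every RA-sufficient library. The calls of Cyp26a1 were lost without RA-deficient 2 or any RA-sufficient library (adjusted p 0.0669 to 0.0865), and that of Cyp26c1 without RA-sufficient 2 (adjusted p = 0.0514). The 250 bases before the start of Cyp26a1 (chr19:37697558-37697807, plus strand, RefSeq on GRCm38.p6) are shown because they hold an RA response element, written in capitals. The search was for AGNTCA repeated after 5 bases, on both strands, and the match spans bases 32 to 16 before the start.
Cyp26a1 promoter: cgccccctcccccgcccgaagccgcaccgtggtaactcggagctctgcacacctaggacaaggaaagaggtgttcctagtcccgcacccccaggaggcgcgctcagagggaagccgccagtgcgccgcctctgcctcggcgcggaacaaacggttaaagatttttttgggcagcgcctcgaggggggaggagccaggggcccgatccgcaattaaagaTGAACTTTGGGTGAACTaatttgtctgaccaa
Such a match was found in 0.237% of 27025 symbols with a promoter, in 0.102% of tested genes with one, in 3 of 1309 lower genes with a promoter and in 0 of 527 higher genes. In the RA lists, 22 tested genes had a promoter and Cyp26a1 was the 1 with a match. The window for these shares also took in bases just after the start, unlike the stretch shown. A match describes letters and not binding.

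Among RA receptors and binding proteins, Rarg and Rxra were called higher with all 6 libraries, and Rara and Crabp1 were not called. Rarg, the RA receptor gamma of spermatogonia, was called higher with 19.7, 23.4 and 21.1 CPM in RA-sufficient PL against 81.5, 82.4 and 50.8 CPM (log2 fold change 1.74 ± 0.23, adjusted p = 0.00338), a level that approached the 82.4 to 108 CPM of In/B. Rxra, its heterodimer partner, had 12, 23.2 and 17.6 CPM against 44.2, 42.7 and 30.7 CPM, and its call was lost without RA-deficient 1 or 2 or RA-sufficient 1 or 3 (adjusted p 0.0749 to 0.0970). Rara, the RA receptor alpha, had 57.8, 57.8 and 59.8 CPM against 47.3, 37.2 and 51.1 CPM, without overlap. Its log2 fold change of -0.38 ± 0.17 was not called. Crabp1, a cytosolic RA binding protein, had 10.4, 16.4 and 13.5 CPM in RA-sufficient PL but 50.4, 50.6 and 13 CPM in RA-deficient PL, so replicate 3 lay within the RA-sufficient range, and of the 6 fits that left out 1 library, it was called in the 1 without replicate 3 (log2 fold change 1.92, adjusted p = 0.000857).

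The known RA targets of germ cells gave no single direction, with 5 lower and 3 higher calls of 15 tested, against 11% and 4.47% of all tested genes. Without RA-sufficient 1 there were 3 lower and 1 higher of 15. The lower calls include Stra6 and Cyp26a1, which were also counted with the genes for synthesis, storage and breakdown. Ccnd2 and Sohlh2 are also members of the list of differentiating spermatogonia. Tgm2, a transglutaminase induced by RA in many tissues, had 28.0, 26.9 and 29.5 CPM in RA-sufficient PL against 3.72, 1.74 and 3.93 CPM (log2 fold change -3.17 ± 0.37, adjusted p = 0.00221). Ccnd2, the D-type cyclin of differentiating spermatogonia, had 49.8, 79.3 and 60.3 CPM against 18.4, 18.2 and 14.8 CPM. Stra8, the gene named for its induction by RA and needed for normal entry into meiosis, had 444, 126 and 121 CPM in RA-sufficient PL and 377, 365 and 81.5 CPM in RA-deficient PL. Its groups overlapped, with replicate 3 below every RA-sufficient library, and the log2 fold change of 0.22 ± 0.70 gave adjusted p = 0.840. Rec8, the meiotic cohesin subunit, had 45.3, 32.1 and 30.0 CPM against 29.4, 39.5 and 5.86 CPM, with replicates 1 and 3 below every RA-sufficient library and replicate 3 the lowest. Kit, the receptor of differentiating spermatogonia, had 41.0, 32.8 and 20.2 CPM in RA-sufficient PL and 561, 521 and 20.3 CPM in RA-deficient PL, against 327 to 404 CPM in In/B. Its call (log2 fold change 3.54 ± 1.03, adjusted p = 0.0443) therefore rested on replicates 1 and 2, and it was lost without any 1 library other than RA-deficient 3 (adjusted p 0.0938 to 0.142).

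**Figure D3:**
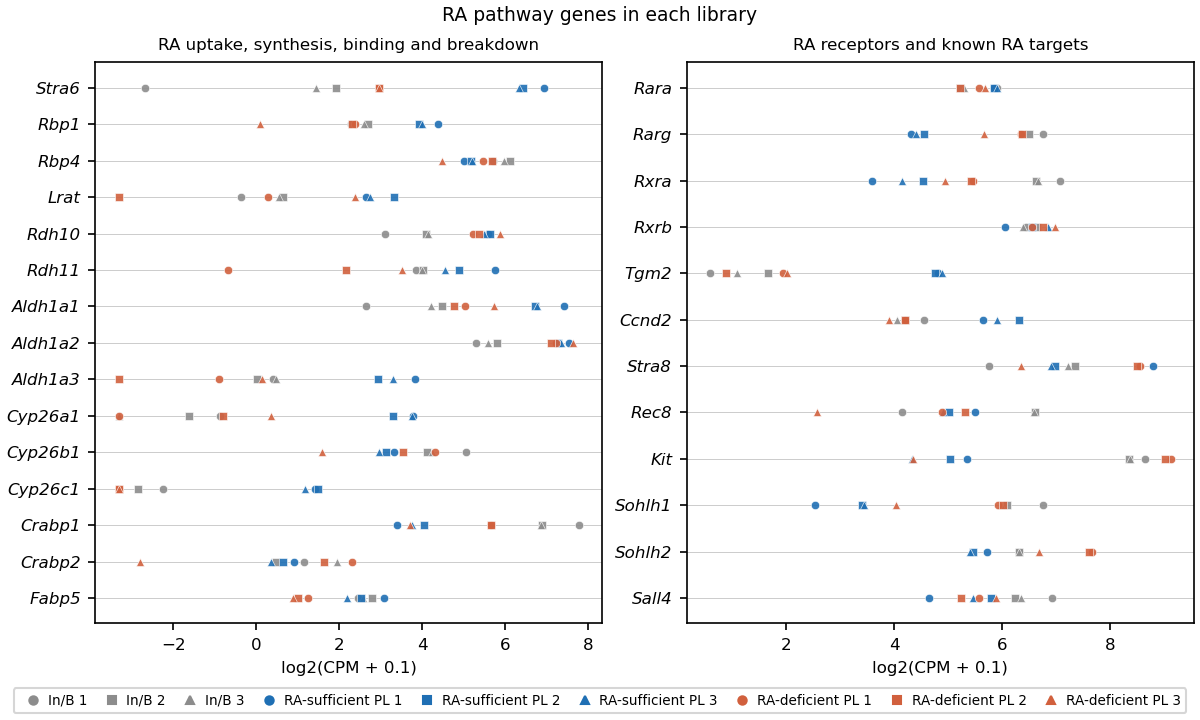
Level of RA pathway genes in each of the 9 libraries, as log2(CPM + 0.1), with colours for In/B, RA-sufficient PL and RA-deficient PL and symbols for replicates. Stra6, Tgm2 and Ccnd2 separate the PL groups in every library, whereas for Kit, Rec8 and Crabp1 RA-deficient replicate 3 lies away from replicates 1 and 2.

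The largest falls brought genes to or near 0 counts in the RA-deficient libraries, among them X-linked Sowahd, Stk26 and Tmem255a. Sowahd, an ankyrin repeat gene at X:34588840-34590413 (plus strand, mm9), had 10.2, 8.55 and 13 CPM in RA-sufficient PL and no count in any RA-deficient library, which makes it at least 85.8-fold lower against a floor of 3 counts per library. Stk26, a kinase of the Ste20 family at X:48194224-48246274, had 874 counts over the RA-sufficient and 1 count over the RA-deficient libraries, a ratio of 1211 with a 95% counting interval of 217 to 47903 (exact), and 2.32 to 3.08 CPM in In/B. Tmem255a, a transmembrane protein, had 278, 175 and 141 CPM against 0, 0 and 1.53 CPM. Oit3, a secreted protein, had 38.7, 40.1 and 34.8 CPM against 0.240, 0 and 0 CPM, and Slc18b1, a vesicular polyamine transporter, had 23, 27.8 and 18.0 CPM against 0.160, 0 and 0.0874 CPM. Fshr, the receptor for follicle-stimulating hormone and a marker of Sertoli cells, stood in the same range with 25.8, 18.1 and 16.2 CPM against 0, 0 and 0.874 CPM, and its call was lost without any of the RA-sufficient libraries (adjusted p 0.0550 to 0.0729). In every In/B library these genes were also below every RA-sufficient library, with highest In/B values of 0.189 CPM for Sowahd, 0.756 CPM for Oit3, 3.89 CPM for Slc18b1 and 11.2 CPM for Tmem255a. Each of these highest values was above every RA-deficient library. Single In/B libraries were not always above, since Sowahd had no count in In/B 3 and Tmem255a had 0.727 CPM in In/B 1.

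The lower genes with the smallest p were more abundant and kept a residual level. Their groups do not overlap because the naming rule required it. Esyt3, a lipid transfer protein at contacts of the endoplasmic reticulum with the plasma membrane, had 253, 191 and 182 CPM in RA-sufficient PL against 12.2, 13.7 and 9.36 CPM (log2 fold change -4.16 ± 0.24). Slc47a2, an exporter of organic cations, had 108, 88.9 and 86.4 CPM against 5.48, 4.12 and 6.25 CPM (-4.17 ± 0.24), and Obsl1, a cytoskeletal adaptor, had 120, 138 and 149 CPM against 10.6, 6.81 and 6.30 CPM (-4.10 ± 0.24). Cdh23, a long cadherin, fell by 3.99 ± 0.23 and Sema7a, a membrane-anchored semaphorin, by 3.75 ± 0.20 on the log2 scale. Daam2, a formin of the Wnt pathway, had 418, 383 and 358 CPM against 43.1, 46.4 and 60.5 CPM (-2.96 ± 0.17). Each of these 6 genes had adjusted p = 0.00079 and stayed called when any 1 library was left out. All 6 had 67.1 CPM or less in every In/B library.

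**Figure D4:**
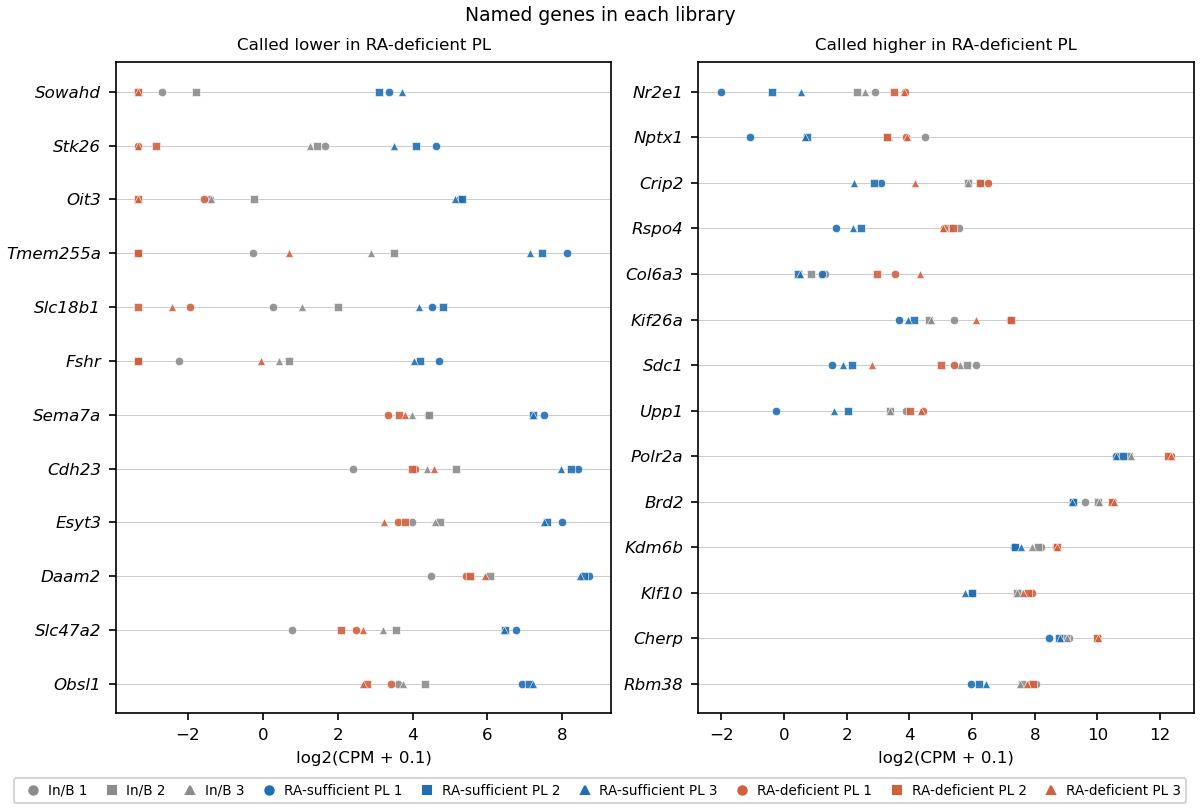
Level of selected genes called lower (left) and higher (right) in each library, as log2(CPM + 0.1). For every gene on the left the 3 RA-sufficient libraries lie to the right of the other 6, and on the right RA-deficient replicate 3 lies well below replicates 1 and 2 for Sdc1 (6.95 CPM) but beside them for Polr2a, Brd2 and Kdm6b.

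Glycolysis, the breakdown of glucose to pyruvate, was mostly lower, with 11 of 21 tested genes called lower and 1 higher against 11% and 4.47% of all tested genes. Pfkl, the liver form of phosphofructokinase, had 97.5, 86.0 and 88.9 CPM in RA-sufficient PL and 7.36, 2.22 and 8.61 CPM in RA-deficient PL (log2 fold change -3.91 ± 0.48, adjusted p = 0.00261). Ldhb, a lactate dehydrogenase subunit, had 328, 212 and 212 CPM against 54.0, 38.6 and 61.5 CPM. Hk2, a hexokinase, had 73.0, 60.4 and 66.4 CPM against 20.8, 18.2 and 22.6 CPM, and Aldoa, the aldolase, had 153, 133 and 130 CPM against 52.2, 49.5 and 69.1 CPM. Sertoli cells are known for high glycolysis, and the part of the Sertoli RNA described above in these differences was not tested. Without RA-sufficient 1 the list kept 6 of 21 lower, where 5.28% of all tested genes were called lower.

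Of 28 tested genes for defence against oxidation 9 were lower and 1 higher, against 11% and 4.47% of all tested genes, and 6 of the 9 stayed called in every fit that left out 1 library. Prdx3, the mitochondrial peroxiredoxin, had 52.7, 37.1 and 37.5 CPM in RA-sufficient PL against 7.32, 6.38 and 7.52 CPM (log2 fold change -2.60 ± 0.26, adjusted p = 0.00133). Prdx2, a cytosolic peroxiredoxin, had 58.4, 49.5 and 55.5 CPM against 10.6, 12.5 and 8.13 CPM. Prdx6, which also has a phospholipase activity, had 115, 79.3 and 75.3 CPM against 22.4, 16.4 and 19.8 CPM. For these 3 genes the RA-deficient level was also below every In/B library, whose lowest values were 10.3, 19 and 36.9 CPM in the same order. Gsta4, a glutathione transferase for lipid peroxidation products, had 126, 85.5 and 87.5 CPM against 17.1, 15.7 and 25.3 CPM, with 11 to 14.0 CPM in In/B.

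Apoptosis and stress genes were mixed. Of 30 tested p53 targets and apoptosis genes 5 were lower (16.7%) and 2 higher (6.67%), shares near the 11% and 4.47% of all tested genes. Without RA-deficient 3 the counts were 8 and 4, and without RA-sufficient 1 they were 4 and 0. Casp6, an executioner caspase, had 30.5, 23.2 and 26.4 CPM in RA-sufficient PL and 7.60, 8.16 and 5.03 CPM in RA-deficient PL, below the 24.6 to 30.5 CPM of In/B. Casp8, the initiator caspase of death receptors, had 15.5, 5.70 and 8.20 CPM against 0.560, 0.475 and 1.27 CPM. Sesn1, a p53-induced sestrin, had 91.6, 71.4 and 72.7 CPM against 32.0, 31.3 and 40.2 CPM. Of 26 unfolded protein and heat shock genes 2 were lower (7.69%, against 11% of all tested genes), among them Hspb1, a small heat shock protein, with a log2 fold change of -3.53 ± 0.50 (adjusted p = 0.00422). In the MHC class I list 5 of 22 were lower (22.7%, against 11% of all tested genes), with 9 of 24 without RA-deficient 3 and 2 of 27 without RA-sufficient 1. Among the 5 was Tapbp, which loads peptides onto class I molecules, with 168, 131 and 134 CPM against 28.2, 30.7 and 51.8 CPM.

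Cytoskeleton, matrix and transport genes carried both directions. Of 47 tubulins and kinesins 10 were lower and 5 higher, against 11% and 4.47% of all tested genes, and without RA-sufficient 1 the counts were 5 and 3 of 48. Kif21a, a kinesin that restrains microtubule growth, had 159, 139 and 121 CPM in RA-sufficient PL against 7.28, 10.7 and 14.6 CPM (log2 fold change -3.69 ± 0.29), and Kif1a, a kinesin of vesicle transport, fell by 2.99 ± 0.29 on the log2 scale. Kif26a, a kinesin without motor activity, went the other way, with 12.7, 17.8 and 15.4 CPM against 147, 151 and 69.4 CPM (3.00 ± 0.33). Of 50 collagens and laminins 9 were lower (18%) and 5 higher (10%), and without RA-sufficient 1 the counts were 6 and 3 of 51. Col18a1, the source of endostatin, had 384, 319 and 331 CPM against 52.3, 60.6 and 71.1 CPM (-2.50 ± 0.16), and Lama1, a laminin chain, fell by 2.45 ± 0.25 on the log2 scale. Col6a3, a chain of type VI collagen, had 2.21, 1.27 and 1.32 CPM against 11.6, 7.77 and 20.3 CPM and 1.74 to 2.40 CPM in In/B, so it was above both other groups. Among 282 solute carriers 42 were lower (14.9%) and 11 higher (3.90%), shares near those of all genes, and Slc52a3, a riboflavin transporter, had 269, 190 and 193 CPM against 12.4, 9.51 and 21.1 CPM.

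Genes of the sperm tail were mostly lower, but how many were called depended on individual libraries. The central pair, radial spokes and molecular ruler of the axoneme were represented by 51 tested genes, of which 49 lay below 0 on the log2 scale (median -2.15). Of these, 7 were called lower (13.7%, against 11% of all tested genes), with 22 lower by DESeq2 and 43 by limma voom. Of 22 axonemal dyneins 2 were lower with a median of -2.0, against 9 by DESeq2 and 16 by limma voom. Of 16 dynein assembly factors 2 were lower with a median of -1.02, and of 35 tektins, outer dense fibre and fibrous sheath genes 6 were lower with a median of -1.42. Without RA-deficient 3, 43 of 51 central pair and spoke genes, 17 of 22 dyneins, 9 of 16 assembly factors and 21 of 37 tektin and fibre genes were called lower, where 20.4% of all tested genes were. Without RA-sufficient 1 the same lists gave 1, 0, 1 and 1 lower calls, where 5.28% of all genes were called lower. The summed CPM of the dyneins was 2568, 972 and 746 in RA-sufficient PL, 278, 285 and 603 in RA-deficient PL and 329, 318 and 302 in In/B. RA-sufficient 1 was the highest library, RA-deficient 1 and 2 lay just below In/B, and RA-deficient 3 approached RA-sufficient 3.

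Single tail genes varied in where RA-deficient 3 lay. Dnah8, a heavy chain of the sperm outer arm, had 1370, 380 and 296 CPM in RA-sufficient PL and 84.3, 72.9 and 212 CPM in RA-deficient PL (log2 fold change -2.51 ± 0.70, adjusted p = 0.0391), and without RA-sufficient 1 its change was -1.44 and the call was lost, as it was without RA-deficient 1 or 2 or RA-sufficient 2 (adjusted p 0.0587 to 0.110). Dnaaf1, an assembly factor, had 211, 142 and 121 CPM against 15.8, 23.8 and 77.3 CPM, and its call was lost without any 1 library other than RA-deficient 3 (adjusted p 0.0797 to 0.135). Spag16, a central pair protein, had 29.8, 10.0 and 10.5 CPM against 3.76, 2.62 and 2.84 CPM, with replicate 3 beside the other RA-deficient libraries, and its call was lost without RA-deficient 2 (adjusted p = 0.0525). Tekt1, a filament protein of axonemal microtubules, had 44.6, 24.7 and 22.5 CPM against 2.36, 0.475 and 3.41 CPM (log2 fold change -3.90 ± 0.71, adjusted p = 0.00955) and stayed called without any 1 library. Daw1, an assembly factor for outer arm dyneins, had 14.1, 4.06 and 1.81 CPM and no count in any RA-deficient library. Catsper2, a subunit of the sperm calcium channel, had 81.8, 52.0 and 52.4 CPM against 15.8, 13.7 and 33.7 CPM, and its call was lost without any 1 library other than RA-deficient 3 (adjusted p 0.0623 to 0.0950).

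Intraflagellar transport, the traffic that builds a cilium or tail, gave 6 lower calls of 39 (15.4%, against 11% of all tested genes) and a median of -0.19 on the log2 scale. Without RA-deficient 3 it gave 15 of 39, without RA-sufficient 1 it gave 1 of 39, and 1 gene stayed called without any 1 library. Its motor subunits parted. Kif3b had 149, 110 and 94.0 CPM in RA-sufficient PL against 34.4, 31.2 and 48.4 CPM (log2 fold change -1.64 ± 0.26, adjusted p = 0.00568), whereas Kif3a had 140, 123 and 117 CPM against 192, 192 and 183 CPM (0.57 ± 0.13, not past the fold threshold). Ift140, of the returning transport complex, had 276, 154 and 142 CPM against 75.8, 77.3 and 93.8 CPM, and its call was lost without RA-deficient 1 or 2 or RA-sufficient 1 (log2 fold change -1.16 to -0.83, adjusted p 0.0215 to 0.0600). Ift22, a small GTPase of the outgoing complex, had 25.6, 17.2 and 15.7 CPM against 3.36, 5.59 and 8.22 CPM and 12 to 15.3 CPM in In/B. Its call was lost without any 1 library other than RA-deficient 3 (adjusted p 0.0510 to 0.0841). Of 22 tested transcription regulators of ciliary and spermatid genes 1 was called higher (4.55%) and 0 lower, against 4.47% and 11% of all tested genes. Their median was -0.09 on the log2 scale. The called gene was Rfx1, a factor that binds the X-box of ciliary promoters. Rfx1 had 39.8, 52.8 and 59.3 CPM in RA-sufficient PL and 151, 145 and 106 CPM in RA-deficient PL (log2 fold change 1.41 ± 0.20, adjusted p = 0.00397). It had 38.7 to 40.4 CPM in In/B.

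The promoters of Ift22 and of Lrguk, a guanylate kinase domain protein needed for the sperm tail that had 21.2, 10.2 and 8.38 CPM in RA-sufficient PL against 3.28, 3.96 and 4.15 CPM, are shown because both were called lower and hold an X-box, written in capitals. The letters searched were GTNNCC, 2 bases and GGNNAC, on both strands. The 250 bases before each start come from RefSeq on GRCm38.p6, at chr5:136907900-136908149 for Ift22 and chr6:34029198-34029447 for Lrguk, both on the plus strand.
Ift22 promoter: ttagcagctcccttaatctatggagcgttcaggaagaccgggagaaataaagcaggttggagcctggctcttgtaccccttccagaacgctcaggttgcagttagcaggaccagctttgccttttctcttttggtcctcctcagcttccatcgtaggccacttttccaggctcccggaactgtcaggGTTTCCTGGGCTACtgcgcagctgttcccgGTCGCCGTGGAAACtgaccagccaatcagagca
Lrguk promoter: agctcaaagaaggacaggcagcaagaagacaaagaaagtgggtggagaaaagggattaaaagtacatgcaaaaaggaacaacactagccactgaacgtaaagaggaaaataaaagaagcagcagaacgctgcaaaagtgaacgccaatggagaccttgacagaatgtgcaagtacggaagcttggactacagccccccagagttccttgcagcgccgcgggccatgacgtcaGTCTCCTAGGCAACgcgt
Ift22 has 2 matches, at bases 63 to 50 and 33 to 20 before the start, and Lrguk has 1, at bases 18 to 5. A match was found in 23 of 134 tested genes of the axoneme and cilium lists with a promoter (17.2%), in 2.81% of tested genes with a promoter and 2.16% of all 27025 symbols, in 3.44% of lower genes, in 1.9% of higher genes and in 2.77% of tested genes not called. As for the RA response element, the window for these shares also took in bases just after the start. The call of Lrguk was lost without RA-deficient 1 or 2 or RA-sufficient 1 or 2 (adjusted p 0.0639 to 0.0897).

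Acrosome and spermatid genes followed the tail genes. Of 26 acrosome genes 5 were called lower (19.2%, against 11% of all tested genes) and 0 higher, with a median of -2.14 on the log2 scale. Without RA-deficient 3 the count was 19 of 26, where 20.4% of all tested genes were called lower, and without RA-sufficient 1 it was 1 of 26, where 5.28% were. DESeq2 called 8 lower and limma voom 19. Acrbp, the proacrosin binding protein, had 120, 61.5 and 56.9 CPM in RA-sufficient PL and 12.8, 17.7 and 26.3 CPM in RA-deficient PL (log2 fold change -2.09 ± 0.40, adjusted p = 0.0116) and stayed called without any 1 library. Zpbp, a zona pellucida binding protein, had 39.5, 23 and 21.7 CPM against 3.88, 6.78 and 12.8 CPM, and its call was lost without any 1 library other than RA-deficient 3 (adjusted p 0.0649 to 0.112). Rimbp3, a protein of the spermatid manchette, had 104, 66.7 and 50.5 CPM against 11.8, 15.3 and 18.5 CPM (-2.29 ± 0.34, adjusted p = 0.00454). Chd5, a chromatin remodeller of spermatids, was instead higher, with 33.0, 42.3 and 33.0 CPM against 158, 131 and 95.4 CPM, with replicates 1 and 2 above the 73.7 to 99.4 CPM of In/B. Among the metabolic isoforms and ADAMs of spermatocytes and spermatids, 3 of 35 were lower with all libraries, 27 of 36 without RA-deficient 3 and 2 of 36 without RA-sufficient 1, against 11, 20.4 and 5.28% of all tested genes. Slc16a7, a carrier of pyruvate and lactate, had 14.9, 8.55 and 5.65 CPM against 0.920, 0.634 and 1.09 CPM. Ly6k, a surface protein of germ cells, was higher, with 209, 304 and 344 CPM against 724, 743 and 793 CPM, and it was also far above the 17.1 to 44.3 CPM of In/B.

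**Figure D5:**
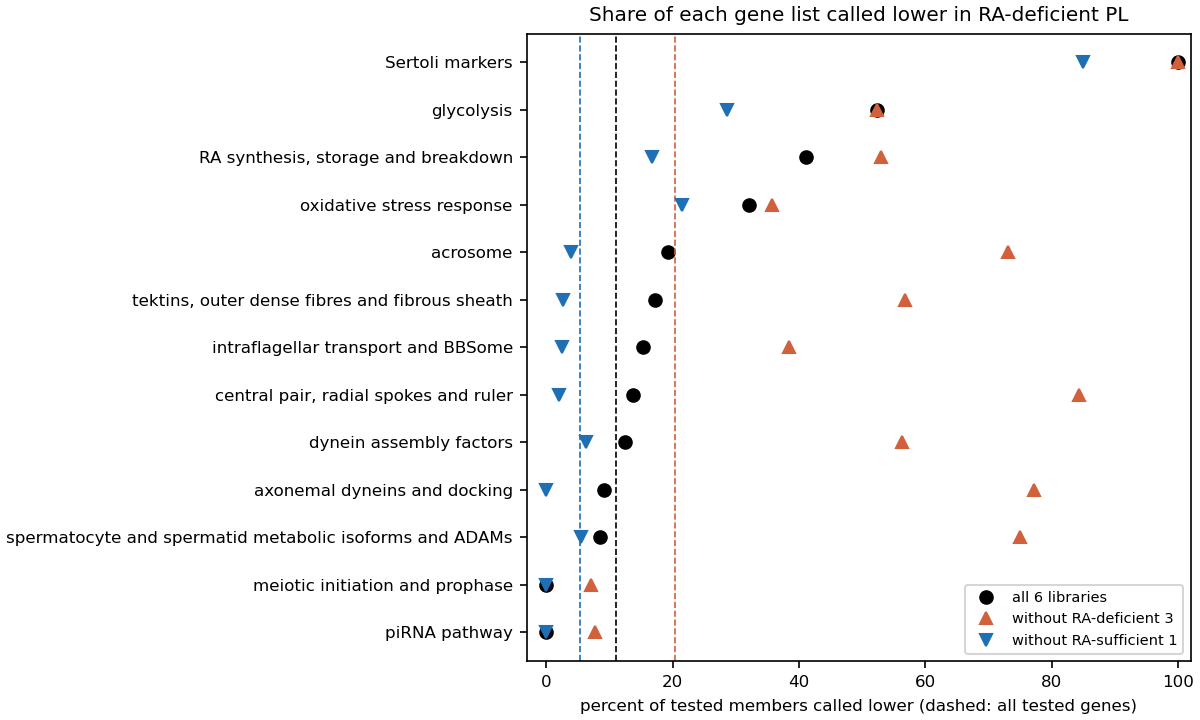
Percent of the tested members of 13 lists that were called lower, with all 6 PL libraries (circles), without RA-deficient 3 (upward triangles) and without RA-sufficient 1 (downward triangles), beside the percent of all tested genes as dashed lines (11, 20.4 and 5.28%). The tail and acrosome lists lie near the dashed line with all libraries and far to its right without RA-deficient 3, whereas Sertoli markers lie at 85.0% or more in all 3 settings.

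Of 56 tested genes of meiotic initiation and prophase 0 were called lower (against 11% of all tested genes) and 4 were called higher by edgeR (7.14%, against 4.47% of all tested genes, median on the log2 scale 0.22), and all 4 stayed called without any 1 library. At an unadjusted p below 0.05, 16 were higher and 1 lower, DESeq2 called 4 higher and 0 lower, and limma voom called 7 higher and 4 lower. Mei1, needed to form meiotic double-strand breaks, had 217, 153 and 141 CPM in RA-sufficient PL and 613, 630 and 418 CPM in RA-deficient PL (log2 fold change 1.69 ± 0.24, adjusted p = 0.00412). Fkbp6, a chaperone of the synaptonemal complex and the piRNA pathway, had 225, 211 and 197 CPM against 497, 547 and 361 CPM, and X-linked Tex11, a regulator of crossovers, had 166, 180 and 189 CPM against 408, 386 and 343 CPM. Fkbp6 and Tex11 had 441 to 499 CPM and 341 to 489 CPM in In/B, so the RA-sufficient level was the lowest of the 3 groups for both. Sycp3, of the chromosome axis, had 403, 530 and 612 CPM against 557, 532 and 701 CPM and was not called, with 81.0 to 104 CPM in In/B. Dmc1, the meiotic recombinase, had 360, 632 and 747 CPM against 445, 451 and 671 CPM. Meiob, a single-strand DNA binding protein of later prophase, had 88.4, 179 and 182 CPM against 57.5, 49.7 and 238 CPM, with replicate 3 above and replicates 1 and 2 below every RA-sufficient library. Without RA-deficient 3, 6 genes of this list were higher and 4 lower, where 8.01% of all tested genes were called higher and 20.4% lower. In that fit Meiob had a log2 fold change of -1.48 (adjusted p = 0.0080).

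The piRNA pathway, which silences transposons in germ cells, gave 5 higher (19.2%) and 0 lower calls of 26, against 4.47% and 11% of all tested genes. At an unadjusted p below 0.05 there were 9 higher and 3 lower, with 5 and 0 by DESeq2 and 7 and 2 by limma voom. Mov10l1, the helicase that starts piRNA processing, had 221, 259 and 263 CPM in RA-sufficient PL and 553, 549 and 516 CPM in RA-deficient PL (log2 fold change 1.12 ± 0.10, adjusted p = 0.00093). Piwil2, a piRNA-binding Argonaute protein, had 143, 184 and 174 CPM against 402, 377 and 323 CPM (1.14 ± 0.13, adjusted p = 0.00206). In/B had 426 to 451 CPM of Mov10l1 and 321 to 371 CPM of Piwil2. Gpat2, a mitochondrial protein of the same pathway, had 238, 272 and 326 CPM against 566, 521 and 492 CPM and stood just under the fold threshold at 0.92 ± 0.12, and without RA-sufficient 3 it was called at 1.01 (adjusted p = 0.00971).

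Replication genes leaned upwards by less than the fold threshold. The median log2 fold change of 58 tested genes was 0.53, and 47 of them were above 0. Calls numbered 5 higher and 0 lower, against 4.47% of all tested genes called higher and 11% called lower. At an unadjusted p below 0.05 there were 26 higher and 0 lower, and DESeq2 gave 8 higher and 0 lower and limma voom 9 and 0. Without RA-sufficient 1 there were 2 higher and without RA-deficient 3 there were 11. Rrm2, the regulated subunit of ribonucleotide reductase, had 114, 95.3 and 104 CPM in RA-sufficient PL and 345, 349 and 246 CPM in RA-deficient PL (log2 fold change 1.58 ± 0.17, adjusted p = 0.00179), above the 139 to 152 CPM of In/B. Mcm5, of the replicative helicase, had 422, 617 and 685 CPM against 1048, 1120 and 1133 CPM (0.94 ± 0.16), and without RA-sufficient 3 it was called at 1.06 (adjusted p = 0.0183). Mcm6, of the same helicase, had 170, 226 and 229 CPM against 400, 384 and 325 CPM. Of 49 mitosis and kinetochore genes 3 were higher (6.12%) and 2 lower (4.08%), against 4.47% and 11% of all tested genes. Mad1l1, a spindle checkpoint protein, had 67.6, 54.0 and 58.6 CPM against 161, 176 and 137 CPM, with 20.5 to 29.1 CPM in In/B.

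Several spermatogonial genes were called higher, 7 of 18 for differentiating and 8 of 30 for stem and progenitor spermatogonia against 4.47% of all tested genes. In the same order 2 and 1 were called lower, against 11% of all tested genes. Of the 30 stem and progenitor genes, 18 lay above 0 and 12 below 0 on the log2 scale (median 0.42). Without RA-sufficient 1 the counts of higher genes were 2 of 18 and 5 of 30, where 2.43% of all tested genes were called higher. Of the higher genes, 2 and 3 stayed called without any 1 library. Foxo1, a transcription factor of the spermatogonial pool, had 68.2, 73.9 and 64.0 CPM in RA-sufficient PL and 161, 151 and 144 CPM in RA-deficient PL (log2 fold change 1.14 ± 0.13, adjusted p = 0.00187), against 184 to 210 CPM in In/B. Sox3, an X-linked factor of progenitors, had 4.86, 7.21 and 5.96 CPM against 31.3, 57.2 and 37.9 CPM (2.81 ± 0.31), and Lin28a, an RNA-binding protein of the same cells, had 16.4, 33.0 and 33.0 CPM against 75.4, 72.8 and 71.5 CPM. Sohlh2, a helix-loop-helix factor that drives differentiation, had 52.4, 44.3 and 42.2 CPM against 203, 195 and 103 CPM (1.84 ± 0.28), above its 79.4 to 79.5 CPM in In/B. Its partner Sohlh1 had 5.67, 10.5 and 10.7 CPM against 60.8, 65.2 and 16.3 CPM, with a call that was lost without any 1 library other than RA-deficient 3 (adjusted p 0.0557 to 0.0785). Uchl1, whose promoter drives the EGFP used to sort the cells, had 425, 613 and 525 CPM against 1728, 1885 and 991 CPM, with 2352 to 3657 CPM in In/B. Cells of both PL groups were gated on that reporter, and the part of the sort in the Uchl1 difference and in the other differences was not tested. Elmo1, a regulator of cell engulfment listed with the differentiating spermatogonia, was lower instead, with 58.4, 41.6 and 38.1 CPM against 6.28, 5.59 and 8 CPM.

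The higher genes with the smallest p included regulators of transcription and RNA processing. Polr2a, the largest subunit of RNA polymerase II, had 1554, 1794 and 1534 CPM in RA-sufficient PL and 5167, 4906 and 5234 CPM in RA-deficient PL (log2 fold change 1.64 ± 0.11), above the 1767 to 2133 CPM of In/B. Brd2, a bromodomain reader of acetylated histones, had 596, 599 and 581 CPM against 1449, 1417 and 1480 CPM (1.29 ± 0.09). Kdm6b, a demethylase of the repressive mark on lysine 27 of histone H3, had 163, 167 and 187 CPM against 407, 418 and 419 CPM (1.26 ± 0.10). Cherp, a nuclear protein tied to splicing, had 349, 439 and 443 CPM against 1046, 1022 and 1026 CPM (1.33 ± 0.11). Klf10, a zinc finger factor, had 63.7, 64.2 and 54.9 CPM against 243, 223 and 196 CPM, and Rbm38, an RNA-binding protein, had 62.4, 74.7 and 87.0 CPM against 233, 246 and 216 CPM. These 6 genes had adjusted p from 0.00079 to 0.000815, stayed called without any 1 library, and had RA-deficient 3 beside the other RA-deficient libraries.

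The largest rises were in genes at lower levels and differed in what replicate 3 showed. Nr2e1, an orphan nuclear receptor of neural stem cells, had 0.147, 0.667 and 1.37 CPM in RA-sufficient PL and 14.6, 11.3 and 14.3 CPM in RA-deficient PL (log2 fold change 4.16 ± 0.68, adjusted p = 0.00669), and Nptx1, a neuronal pentraxin, had 0.368, 1.58 and 1.5 CPM against 14.8, 9.75 and 15.2 CPM. Rspo4, a secreted enhancer of Wnt signalling, had 3.09, 5.34 and 4.50 CPM against 34.3, 42.2 and 33.7 CPM (3.09 ± 0.29), within the 34.7 to 47.7 CPM of In/B for replicate 2 alone. Upp1, a uridine phosphorylase, had 0.736, 4.06 and 2.91 CPM against 21.6, 16.1 and 20.4 CPM, and its call was lost without RA-sufficient 3 (adjusted p = 0.0519). In contrast, Sdc1, a cell surface heparan sulfate proteoglycan, had 2.80, 4.37 and 3.57 CPM against 42.5, 32.4 and 6.95 CPM. Replicate 3 lay just above the RA-sufficient range, and the call of Sdc1 was lost without RA-deficient 1 or any RA-sufficient library (adjusted p 0.0513 to 0.0783).

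Immediate early genes, which signals and tissue handling can both induce, gave 3 higher (13.6%) and 1 lower (4.55%) call of 22. The shares of all tested genes were 4.47% and 11%. Without RA-sufficient 1 the list gave 2 higher and 0 lower. Nr4a1, an orphan nuclear receptor of this class, had 6.77, 12.5 and 14.5 CPM in RA-sufficient PL and 50.1, 43.1 and 39.8 CPM in RA-deficient PL (log2 fold change 1.98 ± 0.30, adjusted p = 0.00511). Egr1, a zinc finger factor, had 38.2, 77.2 and 86.5 CPM against 163, 154 and 181 CPM (1.31 ± 0.27). Among 85 cytosolic ribosomal protein genes 8 were higher (9.41%) and 0 lower with a median of 0.47, and 0 were lower at an unadjusted p below 0.05, by DESeq2 or by limma voom, values that are uncertain because processed copies of these genes share reads with them. Of 53 initiation and elongation factors 1 was higher (1.89%) and 1 lower (1.89%), below the shares of all tested genes. Eef2, which moves the ribosome along the mRNA, had 886, 1009 and 1029 CPM against 1909, 1965 and 1815 CPM (0.96 ± 0.10, just under the fold threshold), while Eif4a1, the cap-binding complex helicase, had 272, 270 and 286 CPM against 193, 179 and 173 CPM (-0.61 ± 0.10). Genes of mitochondrial ribosomes, oxidative phosphorylation and the proteasome had medians of -0.07, -0.08 and -0.04, with 0, 2 and 1 higher and 1, 2 and 1 lower calls of 75, 79 and 38. In that order 0, 2.53 and 2.63% were higher and 1.33, 2.53 and 2.63% lower, below the 4.47% and 11% of all tested genes.

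Set beside In/B, many of the called genes had RA-deficient levels nearer to those of the earlier cells. The mean In/B level was nearer to RA-deficient than to RA-sufficient PL, on log2(CPM + 0.1), for 511 of 687 higher genes (74.4%) and 1252 of 1696 lower genes (73.8%), against 58.8% of all tested genes. The median gene called higher had 51.0 CPM in In/B, 14.8 CPM in RA-sufficient PL and 43.9 CPM in RA-deficient PL. The median gene called lower had 5.93, 25 and 5.00 CPM in the same order. For 322 of the higher genes (46.9%) In/B was above both PL groups, for 291 (42.4%) it lay between them and for 74 (10.8%) it was below both. For 565 of the lower genes (33.3%) In/B was below both PL groups, for 986 (58.1%) it lay between them and for 145 (8.55%) it was above both. Over all tested genes In/B was above both for 39.7%, between for 27.6% and below both for 32.7%. These counts describe levels only, since the In/B cells were younger and were sorted from the bright gate.

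The X chromosome had the highest share of lower genes of any chromosome, 97 of 578 tested (16.8%), against 8.12 to 13.9% of the others, while 30 of its genes (5.19%) were higher and its median log2 fold change was -0.05. Zfp275 and Zfp280c, X-linked zinc finger genes, were among those lower, with log2 fold changes of -2.55 ± 0.21 and -2.90 ± 0.35, as was Ebp, a sterol isomerase of cholesterol synthesis, with 31.8, 24.9 and 25.1 CPM in RA-sufficient PL against 0.560, 1.66 and 2.05 CPM. The share of higher genes also rose with the GC content of the longest coding transcript, from 1.41% to 10.7% over 5 equal bins from low to high GC, and with summed exon length, from 2.54 to 6.88%. The share of lower genes did not follow GC in this way, at 9.60 to 11.9% in the 5 bins. The part of GC content and length in the higher genes was not tested.

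The called genes differed in how they held when a library was left out. RA-deficient and RA-sufficient libraries did not overlap for 1695 of 1696 lower and 672 of 687 higher genes, against 47.4% of all tested genes. The call itself favours genes without overlap, so these counts are not separate support for it. When each of the 6 libraries was left out in turn, 757 lower genes (44.6%) and 226 higher genes (32.9%) stayed called every time. No called gene changed sign, but where groups do not overlap the loss of 1 library can hardly turn a sign. Placing the RA-sufficient mean at 0 and the mean of RA-deficient 1 and 2 at 1 on the log2(CPM + 0.1) scale, RA-deficient 3 lay at a median of 0.889 (quartiles 0.663 and 1.06) for lower genes and 0.680 (quartiles 0.448 and 0.966) for higher genes. Without RA-deficient 3, 3218 genes were lower and 1266 higher, including 1661 of the 1696 and 666 of the 687. Of the genes that became called and were tested in both fits, replicate 3 lay within the range of the RA-sufficient libraries for 403 of 1381 lower and 210 of 575 higher genes. On the other side of the comparison, RA-sufficient 1 was the highest library for 1287 of the 1696 lower genes, and without it 840 genes (5.28%) were lower and 387 (2.43%) higher. Whether the libraries come from separate preparations in every case is not given by the labels, so the p-values measure the spread between these samples.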

How the data were processed

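Per the labels, RNA was read as stranded, poly(A)-selected single-end libraries, and the authors trimmed reads with cutadapt 1.9, aligned them to mm9 with STAR 2.5.2b and deposited raw counts per gene made with featureCounts. The annotation and the strand setting are not given in the sources used here, so overlapping and antisense genes cannot be told apart. Groups came from the labels. The 6 PL libraries were fitted with edgeR 4.0.16 (TMM scaling, filterByExpr, quasi-likelihood test, Benjamini-Hochberg adjustment over 15352 genes), and CPM were scaled by TMM over the 9 libraries. Alternatives were other scalings and filters, DESeq2 1.42.0, limma 3.58.1 voom with sample weights, the 9 libraries together, a replicate block and leaving out each library. Library totals limit precision for genes near the floor of 3 counts, and intervals cover counting error only.

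Genes were named by rule. In each direction these were the 12 called genes with the largest change and the next 6 by p, reaching 10 CPM on average in the higher group without overlap between groups, then up to 4 members of each list with the lowest p and a mean of at least 5 CPM, and members of the RA and marker lists. The 2 genes with printed X-box promoters were chosen among these after their values were seen. Members and lists were chosen with earlier results of these data known. Coordinates on mm9 and exon lengths came from the matching gene annotation, and promoters were matched by symbol for 11794 of the tested genes (76.8%), so motif shares describe those genes only. A gene that met the naming rule is not reported here.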

Additional observations from a re-analysis of the deposited data

How the results depend on the processing

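Against 2383 calls, 687 higher and 1696 lower, limma voom with sample weights gave 4629, 1314 and 3315, a test against a fold of 2 gave 741, 95 and 646, an adjusted p of at most 0.01 gave 973, 252 and 721, and adjusted p alone gave 3629 and 1694 higher. Scaling by library size alone gave 426 higher genes. Leaving out each library gave 1190 to 4484 calls, 313 to 1266 higher and 840 to 3218 lower, with the highest numbers without RA-deficient 3, whose weight in limma voom was 0.201. The replicate numbers did not pair the samples (correlations of deviations -0.06, 0.03 and -0.09), and the fit with the replicate block gave 1765 calls, 529 higher and 1236 lower. Of the 97 named called genes 79 kept their call without any 1 library. The sign of 5 uncalled genes turned when a library was left out. Aldh1a2 ranged from -0.21 to 0.073, with values above 0 without RA-deficient 1 or 2 or RA-sufficient 1. Rdh10 ranged from -0.26 to 0.092, with values above 0 without RA-deficient 1 or 2. Cyp26b1 ranged from -0.26, without RA-deficient 1, to 0.85, and Dmc1 from -0.38 to 0.052, without RA-sufficient 3. Stra8 ranged from -0.10 to 1.18, with values below 0 without RA-deficient 1 or RA-sufficient 2 or 3. The cause was not tested.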
